A study of Sorghum bicolor with 5 samples.

Results

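Expression of 4 genes for the export of sucrose from the leaf, 3 copies of a clade III SWEET gene on sorghum chromosome 8 and the sucrose transporter gene *SUT1*, was described in young leaves of 2 epi-F3 lines. The members were chosen by gene ID from the 35567 genes of the deposited count files, and the choice was made with the difference between the lines already known. The copies are *SORBI_3008G094000*, *SORBI_3008G094300* and *SORBI_3008G094400*, and *SUT1* is *SORBI_3001G488700*. In the study's table of Arabidopsis homologs *SORBI_3008G094300* is paired with *SWEET11* and *SORBI_3008G094400* with *SWEET12*, and they are called the SWEET11 homolog and the SWEET12 homolog here. The sources used here do not pair the other 2 IDs with a name, so these names were taken as given. The SWEET11 and SWEET12 homologs are also in the study's own list of genes that differ between these lines. The difference between the lines is therefore given for all 4 members as a description. Counts of members past a test's threshold stand only beside the same counts over all genes, and nothing is read from them.

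Both lines are in the Tx430 background, which carries the *dw3* allele, and descend from crosses of wild-type Tx430 with progeny of *MSH1*-RNAi plants that had lost the transgene. *MSH1* is a nuclear gene for a protein of mitochondria and plastids. Line 15, epi-F3 low, had the lower growth rate and is represented by 3 plants, and line 68, epi-F3 high, had the higher one and is represented by 2 plants. All were 4 weeks old and came from a greenhouse held at 28°C in the 14 h light period and at 22°C at night. The 3 epi-F3 low replicates carry plant numbers 1, 2 and 3 in the labels, and the 2 epi-F3 high replicates carry plant numbers 1 and 3. The paper describes 3 plants of each line, so its own list of differing genes may rest on an epi-F3 high plant absent here. Each group is a single epi-line, and wild-type Tx430 leaves were not analysed here.

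In leaves that load phloem from the apoplast, sucrose leaves the cells around the vein through SWEET proteins, which let sugars pass down their gradient, and clade III members carry mainly sucrose. SUT1, a symporter that couples sucrose to protons, then takes it up into the companion cells and sieve elements. In maize, a relative of sorghum with the same C4 leaf type, SWEET13 is present as a cluster of copies, and plants that lack the SWEET13 copies or SUT1 keep sugars and starch in the leaf and grow poorly.

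The 5 libraries held 48372266 to 68979436 counts in genes, and levels are given as CPM, counts scaled to the size of each library with TMM. The 2 epi-F3 high plants differed from each other in dividing-cell genes. The summed level of *MCM2* to *MCM7*, 6 genes for the helicase of DNA replication, was 28.1 to 47.1 CPM in the epi-F3 low plants, but 25.9 and 340.2 CPM in the epi-F3 high plants, replicate 2 being the high one. Beside the label of leaf tissue, 5 photosynthesis genes of the study's table had a summed level of 2190 to 7058 CPM. Of these the chlorophyll a-b binding gene paired with *LHB1B1* was at 0.186 to 14.3 CPM. No other tissue is among the libraries, so the label itself was not tested.

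Most reads of the SWEET cluster came from *SORBI_3008G094000* in every plant. Its level was 381.0, 586.3 and 563.4 CPM in epi-F3 low replicates 1, 2 and 3, against 448.6 and 376.0 CPM in epi-F3 high replicates 1 and 2. The lines overlapped, since epi-F3 low replicate 1 lay below epi-F3 high replicate 1. The means were 510.2 ± 112.5 CPM (SD, n = 3) for epi-F3 low and 412.3 ± 51.3 CPM (SD, n = 2) for epi-F3 high, and the edgeR fit across all genes gave a log2 fold change of -0.31 (standard error 0.27). Leaving out epi-F3 low replicate 1 gave -0.50, leaving out epi-F3 low replicate 2 gave -0.20, and leaving out epi-F3 high replicate 2 gave -0.19. In these bulk samples, fewer cells that express a gene and less RNA per cell cannot be told apart.

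The SWEET11 homolog *SORBI_3008G094300* showed the widest gap between the lines among the 4 members. It stood at 22.9, 29.2 and 30.8 CPM in epi-F3 low replicates 1, 2 and 3, from 1610, 1612 and 1899 counts. In epi-F3 high it stood at 9.83 CPM in replicate 1 and 7.05 CPM in replicate 2, from 477 and 458 counts. The lines did not overlap, and the lowest epi-F3 low plant was 2.33-fold above the highest epi-F3 high plant. The means were 27.7 ± 4.20 CPM (SD, n = 3) and 8.44 ± 1.97 CPM (SD, n = 2), a ratio of 3.28, and the log2 fold change was -1.71 (standard error 0.27). When each plant was left out in turn it lay between -1.97 and -1.50.

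The SWEET12 homolog *SORBI_3008G094400* varied more among plants of 1 line. Its level was 22.8, 40.2 and 41.4 CPM in epi-F3 low replicates 1, 2 and 3, against 22.4 and 10.8 CPM in epi-F3 high replicates 1 and 2. Both epi-F3 high plants were below every epi-F3 low plant, but by a narrow margin. The exact Poisson 95% interval of epi-F3 low replicate 1, 21.7 to 24.0 CPM, overlapped that of epi-F3 high replicate 1, 21.1 to 23.7 CPM. The means were 34.8 ± 10.4 CPM (SD, n = 3) for epi-F3 low and 16.6 ± 8.21 CPM (SD, n = 2) for epi-F3 high, and the log2 fold change was -1.07 (standard error 0.39). Leaving out epi-F3 high replicate 1 gave -1.69 and leaving out epi-F3 high replicate 2 gave -0.64, so each epi-F3 high plant decides much of its size.

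*SUT1* (*SORBI_3001G488700*) was more even within each line. It stood at 466.0, 466.4 and 602.6 CPM in epi-F3 low replicates 1, 2 and 3, and at 358.0 and 393.8 CPM in epi-F3 high replicates 1 and 2. The lines did not overlap, and epi-F3 low replicate 3 was the highest plant. Without TMM, as a percentage of all gene counts, the nearest plants were close, at 0.0438% in epi-F3 low replicate 2 and 0.0430% in epi-F3 high replicate 2. The means were 511.7 ± 78.7 CPM (SD, n = 3) and 375.9 ± 25.4 CPM (SD, n = 2), a ratio of 1.36 between epi-F3 low and epi-F3 high. The log2 fold change was -0.44 (standard error 0.24), and leaving out epi-F3 low replicate 3 gave -0.31.

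**Figure D1:**
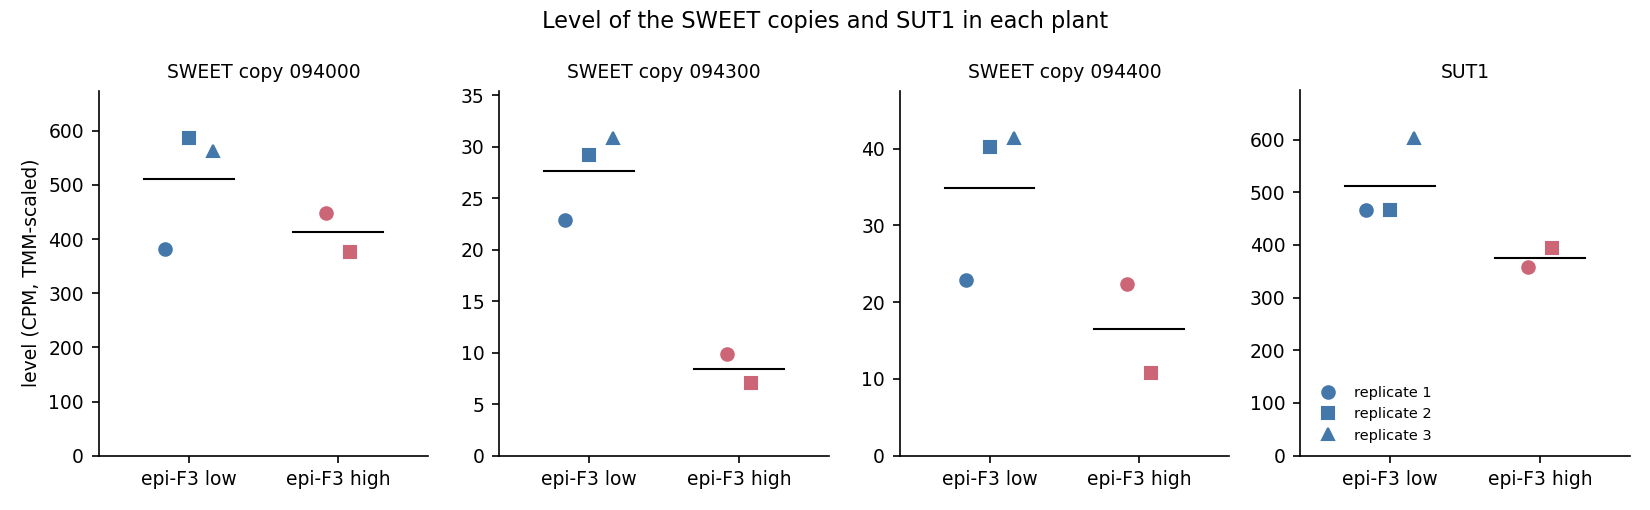
Level in CPM (linear axes from 0, scaled per panel) of the SWEET copies, titled by the end of their IDs, and of *SUT1* in each of the 5 plants, with the mean of each line as a bar. The lines are apart for *SORBI_3008G094300*, close for *SORBI_3008G094400* and *SUT1*, and overlap for *SORBI_3008G094000*.

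All 4 members passed the filter on low counts and had a lower mean in epi-F3 high, as did 47.4% of the 23098 genes tested by the sign of the fitted log2 fold change. In 3 of the 4 both epi-F3 high plants were below every epi-F3 low plant, against 7.48% of all genes tested, and 2 had a log2 fold change of -1 or less, against 4.9%. With the thresholds of the study's methods, an adjusted p up to 0.1 and a log2 fold change of 0.5 or more in either direction, the edgeR quasi-likelihood test called 0 of the 4 members and 0.00433% of all genes, and 2 members, both lower, had an unadjusted p under 0.05, as did 0.961% of all genes in that direction. With the same thresholds the SWEET11 homolog was the only member among the lower genes of edgeR's exact test (0.0476% of all genes) and of DESeq2 (0.108%), and limma-voom called none of the 4. The members were chosen with this contrast known, so these counts are not evidence about them. On the log2 scale, the spread within lines of the SWEET12 homolog, 0.56, was larger than that of 91.8% of the 11746 genes with a mean of at least 10 CPM. That of *SUT1*, 0.18, was larger than that of 33.1%, and the median over these genes was 0.23.

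The make-up of the cluster differed between the lines in every plant. A share of reads within a plant does not depend on the scaling of the libraries, but it is not corrected for the lengths of the copies, which the tables used here do not hold. Levels of the copies were therefore not compared with each other per length. *SORBI_3008G094000* gave 89.3, 89.4 and 88.6% of the cluster's reads in epi-F3 low replicates 1, 2 and 3, against 93.3 and 95.5% in epi-F3 high replicates 1 and 2. Each epi-F3 high plant had a higher share of this copy than every epi-F3 low plant, although the level of the copy was not higher. The shares of the copies in a plant add up to the whole, so this is the same result as lower shares of the other 2 copies.

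The share of the SWEET11 homolog *SORBI_3008G094300* was 5.37, 4.46 and 4.85% in epi-F3 low replicates 1, 2 and 3, against 2.05 and 1.79% in epi-F3 high replicates 1 and 2. The Wilson 95% intervals of the 2 epi-F3 high plants, 1.87 to 2.23% and 1.63 to 1.96%, overlapped each other and lay below those of all epi-F3 low plants, the lowest of which was 4.25 to 4.68%. The line means were 4.89 ± 0.455% (SD, n = 3) and 1.92 ± 0.180% (SD, n = 2). Within each line the share of this copy stayed within 1 percentage point. The interval of epi-F3 low replicate 1, 5.12 to 5.63%, still lay above those of epi-F3 low replicates 2 and 3, the higher of which was 4.64 to 5.07%.

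The share of the SWEET12 homolog *SORBI_3008G094400* was 5.35, 6.14 and 6.51% in epi-F3 low replicates 1, 2 and 3, against 4.65 and 2.73% in epi-F3 high replicates 1 and 2. Its Wilson interval in epi-F3 high replicate 1, 4.39 to 4.93%, lay below that of epi-F3 low replicate 1, 5.10 to 5.61%, so the shares were apart where the levels were not beyond counting error. The difference of the line means was -2.31 percentage points, which became -1.35 on leaving out epi-F3 high replicate 2. Intervals here cover counting error only.

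**Figure D2:**
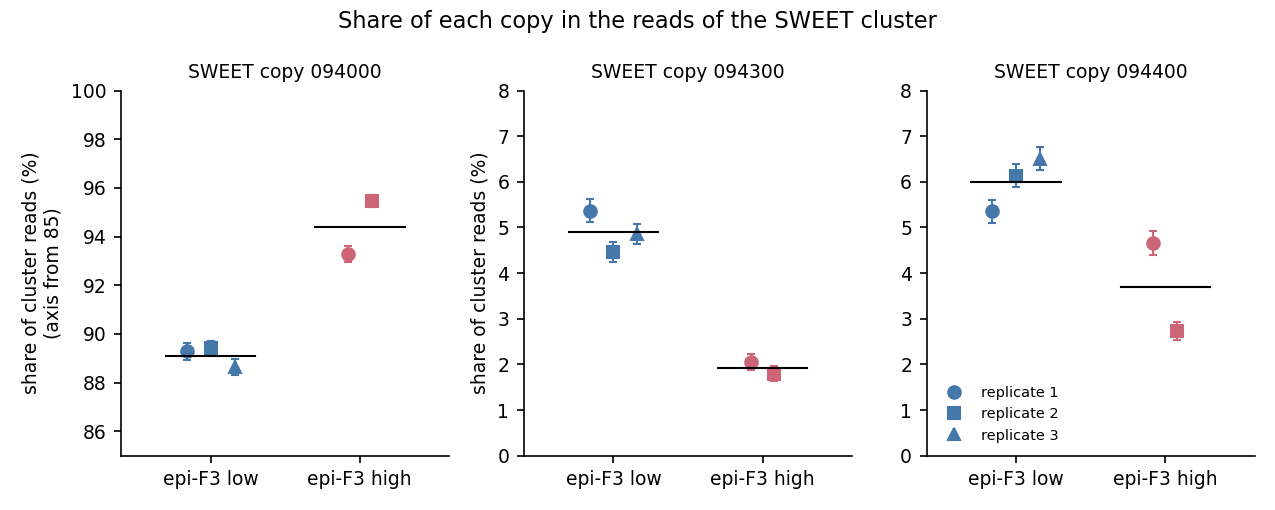
Share of each copy in the reads of the SWEET cluster (%) per plant, with 95% Wilson intervals and the mean of each line as a bar. The axis of the left panel starts at 85, and the SWEET11 homolog stands at 4.46 to 5.37% in epi-F3 low and at 1.79 to 2.05% in epi-F3 high.

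The 2 minor copies were also set against each other. In epi-F3 low replicate 1 the SWEET11 and SWEET12 homologs had nearly equal counts, 1610 and 1605, and in the other 4 plants the SWEET12 homolog had more. The ratio of SWEET11 homolog to SWEET12 homolog counts was 1.00, 0.726 and 0.746 in epi-F3 low replicates 1, 2 and 3, against 0.440 and 0.655 in epi-F3 high replicates 1 and 2. The epi-F3 high plants were lower, but the 2 of them differed from each other more than epi-F3 high replicate 2 differed from epi-F3 low replicate 2. Against the main copy *SORBI_3008G094000*, the log2 ratio of the SWEET11 homolog was -4.19 ± 0.13 (SD, n = 3) for epi-F3 low and -5.62 ± 0.16 (SD, n = 2) for epi-F3 high. That of the SWEET12 homolog was -3.90 ± 0.15 and -4.73 ± 0.57.

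Summed over the 3 copies, the cluster followed its main copy. It stood at 426.7, 655.8 and 635.6 CPM in epi-F3 low replicates 1, 2 and 3, against 480.8 and 393.8 CPM in epi-F3 high replicates 1 and 2. The lines overlapped, as epi-F3 low replicate 1 was below epi-F3 high replicate 1. The mean log2 level was 0.37 lower in epi-F3 high, a difference of -0.37, which became -0.59 on leaving out epi-F3 low replicate 1 and -0.23 on leaving out epi-F3 high replicate 2. The 2 minor copies together stood at 45.7 to 72.2 CPM in epi-F3 low and at 17.8 and 32.2 CPM in epi-F3 high, without overlap.

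SWEET proteins release sucrose and SUT1 takes it up, so the cluster was also set against *SUT1* within each plant. There were 0.916, 1.41 and 1.05 SWEET counts for each *SUT1* count in epi-F3 low replicates 1, 2 and 3, against 1.34 and 1.000 in epi-F3 high replicates 1 and 2. These ratios of counts are not corrected for length, and the lines overlapped fully. The mean log2 ratio was 0.15 ± 0.32 (SD, n = 3) for epi-F3 low and 0.21 ± 0.30 (SD, n = 2) for epi-F3 high. Without single plants their difference of 0.07 ranged from -0.15 to 0.28, so it had no stable direction. The SWEET11 homolog was lower against *SUT1* in both epi-F3 high plants, at 0.0275 and 0.0179 counts for each *SUT1* count against 0.0491, 0.0627 and 0.0512 in the epi-F3 low plants. The ratio of the SWEET12 homolog to *SUT1* overlapped between the lines, with 0.0625 in epi-F3 high replicate 1 above the 0.0490 of epi-F3 low replicate 1.

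**Figure D3:**
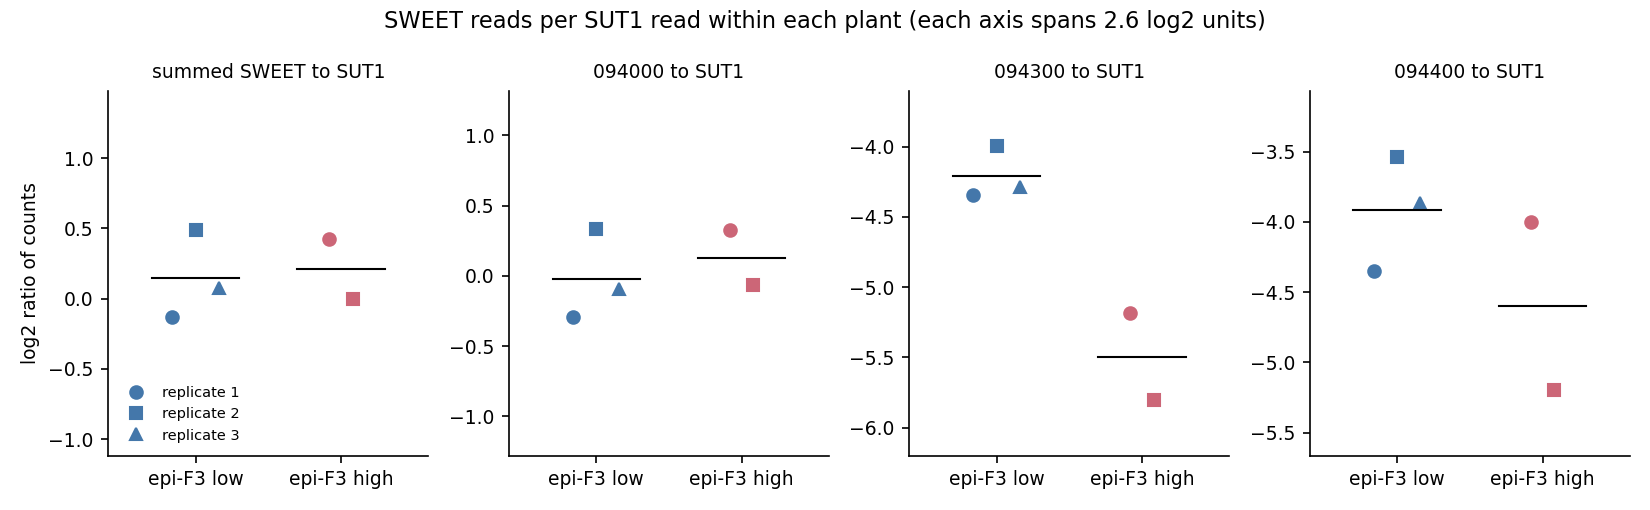
Log2 ratio of SWEET counts to *SUT1* counts in each plant, for the summed copies and for each copy, with the mean of each line as a bar and the same span on each axis. Of these panels, only in that of the SWEET11 homolog do the lines not overlap.

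Across the 5 plants Pearson's r of log2(CPM + 1) was above 0 for each pair of members. It was 0.90 between the SWEET11 and SWEET12 homologs, 0.89 between *SORBI_3008G094000* and the SWEET12 homolog, and 0.69 between *SORBI_3008G094000* and the SWEET11 homolog. With *SUT1* it was 0.84 for the SWEET11 homolog, 0.69 for the SWEET12 homolog and 0.56 for *SORBI_3008G094000*. The 5 points share their libraries and scaling. All 4 members had a lower mean in epi-F3 high and were chosen with that contrast known. An r over both lines includes this shared difference, so these values are only a description. From epi-F3 high replicate 1 to replicate 2, *SUT1* rose from 358.0 to 393.8 CPM, while each SWEET copy fell. With 5 plants, unrelated genes can also reach a high r, so the genes named next are a ranking and not evidence of shared regulation. Of the 11743 other genes with a mean of at least 10 CPM, 78 had an r below -0.95 with the summed copies. In 59 (0.502%) it was above 0.95. The highest were *SORBI_3004G339400* (0.998), *SORBI_3008G112800* (0.997), *SORBI_3010G228700* (0.995), *SORBI_3009G034600* (0.993) and *SORBI_3003G431900* (0.991). None of these 5 is in the study's table of homologs. For *SUT1* 95 genes were below -0.95 and 74 (0.630%) above 0.95. The highest were *SORBI_3002G411500* (0.993), *SORBI_3001G291300* (0.993), *SORBI_3003G052500* (0.992), *SORBI_3010G249200* (0.992) and *SORBI_3006G231266* (0.992). Of these, *SORBI_3003G052500* is paired with *PSAL*, a subunit of photosystem I, and stood at 1060, 977.0 and 1833 CPM in epi-F3 low replicates 1, 2 and 3, with 559.5 and 773.0 CPM in epi-F3 high replicates 1 and 2.

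The loci next to the cluster were described in the same way. By locus number, 10 loci on either side of the cluster were taken, of which 5 were at 0 in all libraries and 13 could be tested. The edgeR quasi-likelihood test called 0 of the 13, as did DESeq2, limma-voom and edgeR's exact test, and 0 had an unadjusted p under 0.05 by any of these tools. In 0 of the 13 were both epi-F3 high plants below every epi-F3 low plant, against 7.48% of all genes tested, a share at which about 1 of 13 would be. In 3 both were above, against 9.29% of all genes tested. The median log2 fold change of the 13 was 0.34, but 7 of them had a mean under 1 CPM, and the median of the other 6 was 0.10, against 0.02 over all genes tested. *SORBI_3008G093500*, paired with the translation initiation factor subunit *EIF3G1* in the study's table, stood at 19.2, 12.7 and 13.3 CPM in epi-F3 low replicates 1, 2 and 3, whereas it stood at 23.2 and 21.3 CPM in epi-F3 high replicates 1 and 2, and its log2 fold change was 0.56 (standard error 0.26). The nearest neighbour after the cluster with many counts, *SORBI_3008G094600*, had a fitted log2 difference of 0.29 (standard error 0.18). The 1 locus between the copies, *SORBI_3008G094150*, had 0 counts in every library, which allows up to 3 counts in each.

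Around *SUT1*, 15 of the 20 neighbouring loci could be tested, and the same 4 tools called 0, with 0 at an unadjusted p under 0.05. The median log2 fold change of the 15 was 0.14, and that of the 8 with a mean of at least 1 CPM was 0.03. *SORBI_3001G488600*, the locus before *SUT1*, had 0.19 (standard error 0.35). In 1 of the 15, *SORBI_3001G487900* at no more than 0.130 CPM, both epi-F3 high plants were below every epi-F3 low plant, and in 2 both were above, shares near the 7.48% and 9.29% over all genes.

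**Figure D4:**
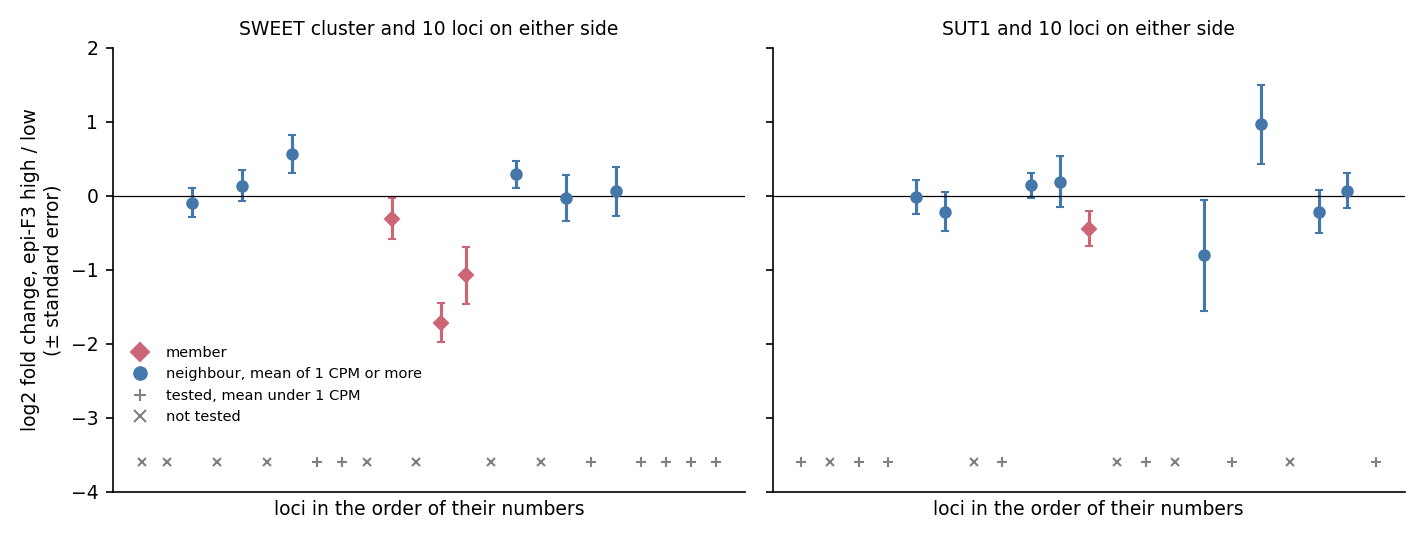
Log2 fold change between the lines, with standard errors, along the loci around the SWEET cluster and around *SUT1* in the order of their locus numbers. The members (diamonds) lie at -0.31, -1.71 and -1.07 in the cluster and at -0.44 for *SUT1*, and marks at the bottom show loci that were not tested or had a mean under 1 CPM, whose values are not drawn.

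Other genes of sugar transport and metabolism were taken from the study's table by their descriptions, 15 genes besides the members. The study chose that table on the contrast of these lines, so neither direction nor lack of overlap in it is independent evidence. In 9 of the 15 the mean was lower in epi-F3 high and in 6 it was higher. The median log2 fold change was -0.62, and the quasi-likelihood test called 0. At an unadjusted p under 0.05 there were 3 higher and 6 lower genes, and the exact test and limma-voom called 0 and DESeq2 2. The summed level of the 15 genes was 1268 to 1500 CPM in the epi-F3 low plants and 931.7 and 839.0 CPM in epi-F3 high replicates 1 and 2. The largest part of it came from *PGIC*, a glucose-6-phosphate isomerase, at 569.9 to 848.5 CPM in epi-F3 low and 500.5 and 402.5 CPM in epi-F3 high.

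Among the 3 sugar transporters, *SORBI_3005G123500*, another sorghum gene paired with *SWEET11*, had few reads. It stood at 2.39, 0.290 and 0.325 CPM in epi-F3 low replicates 1, 2 and 3, and at 9.42 and 1.02 CPM in epi-F3 high replicates 1 and 2. The lines overlapped, and epi-F3 high replicate 1 was the highest plant. The fitted log2 difference was 2.37, and it was 0.02 on leaving out that plant. Leaving out single epi-F3 low plants gave 1.94 to 4.05. *STP1*, a proton symporter of hexoses, stood at 16.6, 7.96 and 21.5 CPM in epi-F3 low and 40.9 and 23.4 CPM in epi-F3 high, without overlap. *STP5*, of the same family, had means of 6.12 ± 3.48 CPM (SD, n = 3) for epi-F3 low and 2.42 ± 1.47 CPM (SD, n = 2) for epi-F3 high. *AHA9*, a plasma membrane proton pump of the kind that powers such symporters, had a fitted log2 difference of -0.67 (standard error 0.26).

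Of the 11 genes of sugar metabolism, 7 had a lower mean in epi-F3 high and 4 a higher one. *SUS4*, a sucrose synthase, which splits sucrose for use in the cell, stood at 260.6, 280.5 and 246.9 CPM in epi-F3 low replicates 1, 2 and 3, and at 126.0 and 171.9 CPM in epi-F3 high replicates 1 and 2. Its lines did not overlap, and its log2 fold change was -0.82 (standard error 0.22). *RFS1*, for the synthesis of raffinose-type sugars from sucrose, had -1.50 (standard error 0.38), *INVE*, a plastid invertase, -0.50 (standard error 0.19) and *BAM3*, an enzyme of starch breakdown, -0.62 (standard error 0.28). The value of *BAM3* was -0.34 on leaving out epi-F3 low replicate 3. Of the 4 genes for trehalose 6-phosphate phosphatases, which act on a signal of sucrose status, *SORBI_3001G353300*, *SORBI_3002G381400* and *SORBI_3002G381500* were higher in mean and *SORBI_3002G184600* was lower. Only *SORBI_3001G353300* (*TPPJ*) and *SORBI_3002G184600* were above 1 CPM in all plants, with log2 fold changes of 1.40 (standard error 0.41) and -1.02 (standard error 0.45). The latter was -0.48 on leaving out epi-F3 high replicate 1 and -1.90 on leaving out epi-F3 high replicate 2.

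**Figure D5:**
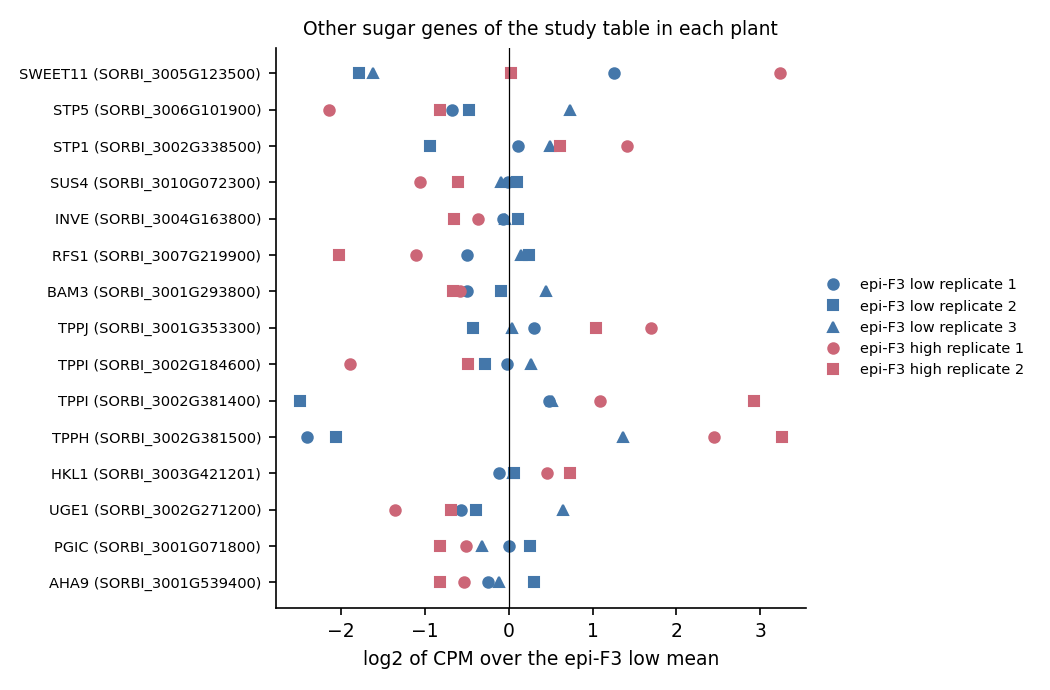
Log2 of the level in each plant over the epi-F3 low mean for the 15 other sugar genes of the study's table, by Arabidopsis homolog and ID, with blue marks for epi-F3 low and red marks for epi-F3 high. The low-level genes paired with *SWEET11*, *TPPI* (*SORBI_3002G381400*) and *TPPH* spread most.

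Markers of other states of the leaf were also described, and they differed in direction between the lines. Of the 2 vascular genes of the study's table, *ATHB-8*, a factor of vein formation, stood at 2.58 to 4.44 CPM in epi-F3 low and at 25.8 and 8.87 CPM in epi-F3 high replicates 1 and 2, and the phloem protein gene *AtPP2-A13* at 19.5 to 26.4 CPM and at 15.6 and 14.9 CPM. The summed level of the 2 was 23.9 to 29.0 CPM in epi-F3 low and 41.4 and 23.8 CPM in epi-F3 high. The summed level of the 5 photosynthesis genes was 3843, 3774 and 7058 CPM in epi-F3 low replicates 1, 2 and 3, against 2190 and 3249 CPM in epi-F3 high replicates 1 and 2. Most of this sum came from the genes paired with *LHCB5*, *PSAL* and *PSAD2*, while *RP1*, a regulator of pyruvate, phosphate dikinase, was higher in epi-F3 high, at 25.8 and 23.3 CPM against 15.2 ± 0.716 CPM (SD, n = 3), and *LHB1B1* overlapped. *SUT1* had its highest and lowest plants in the same libraries as this sum. Epi-F3 high replicate 2 had the lowest level of the 5 plants for the SWEET11 and SWEET12 homologs. For *SORBI_3008G094000* it did not differ from epi-F3 low replicate 1 beyond counting error, at 376.0 against 381.0 CPM. As a percentage of all gene counts, epi-F3 low replicate 1 was the lower of the 2, at 0.0388% against 0.0411%. In epi-F3 high replicates 1 and 2 the summed level of *MCM2* to *MCM7* was 25.9 and 340.2 CPM. The SWEET11 homolog stood at 9.83 and 7.05 CPM in the same plants, below every epi-F3 low plant. The part of these gene groups in the differences of the members was not tested.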

How the data were processed

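Total RNA of young leaves, 1 library per plant, was sequenced with paired ends (DNBseq). Per the methods and labels, the authors used Trim Galore 0.4.1 for trimming, STAR 2.7.3a for alignment to NCBIv3 with reads of more than 1 location discarded, QoRTs 1.3.0 for counting at a minimum mapping quality of 25, and edgeR 3.26.8 for testing. The submitters' notes also name DESeq. The deposited values are raw counts per gene. The 5 summary lines were left out. Reads in no gene were 3.77 to 7.07% and ambiguous reads 0.445 to 0.557% of each library. Reads that match more than 1 copy of the SWEET cluster would have been dropped as not unique, so how far the copies share sequence could change their levels. The strand setting is not given in the sources used here.

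Genes with a total of 10 or more counts were fitted with edgeR 4.0.16 in R 4.3.3 (TMM, quasi-likelihood test, Benjamini-Hochberg adjustment over all genes, adjusted p up to 0.1, log2 fold change of 0.5 or more in size). Standard errors come from the F statistic and are approximate. The fit was tested on simulated data. Shares have Wilson 95% intervals. Alternatives were RLE, no filter, filterByExpr, DESeq2 1.42.0, limma-voom (limma 3.58.1), the exact test, replicate blocks and leaving out each library. Figures were drawn with matplotlib 3.10.9.

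The members and lists were chosen with earlier results of these data known. Genes named are the members, the lists, the loci around them, and the 5 genes most correlated with the summed copies and with *SUT1* among those with a mean of at least 10 CPM. Single neighbours were picked for naming after their values were seen. Of the IDs, 0 were found in the RefSeq gene list, so positions, lengths and sequences of the members are not given.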

Additional observations from a re-analysis of the deposited data

How the results depend on the processing

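The number of genes called between the lines was 1, and 12 with no filter, 0 with filterByExpr, 68 with DESeq2, 51 with the exact test and 0 with limma-voom. It ranged from 0 to 80 when each library was left out, where fits without an epi-F3 high plant hold 1 plant of that line and assume that it varies like the others. With a replicate block it was 7 by replicate number and 70 by plant number. The study describes a further epi-F3 high plant and does not name its edgeR test, so its own list is not set beside these counts. Deviations from the line means correlated at 0.0581 and -0.489 between plants sharing a replicate number. Between those sharing a plant number the values were 0.0581 and 0.474, where the 0.0581 is from the same pair. The 2 epi-F3 high plants deviated equally and oppositely from their mean, so these values cannot tell whether the numbers pair the plants. The 2 blocks gave -0.20 and -0.17 for *SORBI_3008G094000*. *SORBI_3008G094300* was called with DESeq2, the exact test, the block by plant number and without epi-F3 high replicate 1.

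All 52 alternative values of the line differences of the 4 members were below 0. All refits here share the same 5 libraries, and the members were chosen with this contrast known, so their sign is not evidence. Leaving out each library, the log2 fold change of *SORBI_3008G094400* ranged from -1.69 to -0.64, the line difference in the share of *SORBI_3008G094000* from 4.19 to 6.37 percentage points and that of *SORBI_3008G094400* from -3.27 to -1.35. Of 86 alternative values of these and the other member results, 81 moved by less than the spread within lines. That spread comes from the same 5 libraries as the alternative values, so this count is not independent support. The members had 458 to 37113 counts per library, and counting error alone spans the gap between the nearest plants of the lines for *SORBI_3008G094400*.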

Other observations

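The *SUT1* count of epi-F3 low replicate 1 was 32767, which is also the largest value a signed short integer can hold. In the same library 217 genes had a larger count, and *SUT1* itself had 37113 counts in epi-F3 low replicate 3.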
